A study of Sus scrofa with 12 samples.

Results

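The secreted Wnt antagonists described here are SFRP1, SFRP2, SFRP4, FRZB, SFRP5, DKK2, DKK3 and WIF1, 8 of the 35682 genes counted in the left ventricle of pigs after ischemia-reperfusion injury. The family was selected on its border zone against remote zone difference in these same libraries. The size and direction of that difference in the 8 genes are therefore given as a description, and counts of members past a threshold stand only beside the share of all genes. All 8 symbols matched 1 gene identifier each. Of these, 7 passed the filter on low counts, and WIF1 was under it.

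The libraries came from 6 female Yorkshire pigs, 10 to 12 weeks old, whose left anterior descending coronary artery was occluded with a balloon for 60 minutes and then reopened. From day 9 all animals received tacrolimus at 0.75 mg/kg/day, mycophenolate mofetil at 500 mg/day and prednisolone at 20 mg/day. On day 14 each animal underwent a left thoracotomy for either vascular organoids, made of human endothelial progenitor and smooth muscle cells without a scaffold, or fibrin glue. Tissue was taken 4 weeks later. Each animal gave 1 border zone library, from myocardium next to the infarct, and 1 remote zone library, from the posterior wall, so the 12 libraries form 6 pairs. The zone is the one in each sample's title, while the extraction text of the labels names the border zone for all samples. The treatment of each animal was not used, and both zones can hold tissue of both treatments. There was no uninjured heart among these libraries, and all animals were immunosuppressed. Reads were aligned to the pig genome only.

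Wnt ligands bind Frizzled receptors and the coreceptors LRP5 and LRP6, which stabilises β-catenin, and through other coreceptors they act without β-catenin. Secreted antagonists act outside the cell. The secreted frizzled-related proteins carry a domain like the ligand-binding part of Frizzled and bind Wnt ligands, WIF1 binds the ligands through a different domain, and most Dickkopf proteins bind LRP5 and LRP6. In the injured heart, fibroblasts and the scar are known sources of several of these proteins.

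The genes lie on 7 chromosomes of Sscrofa11.1, and no annotated exon of another gene overlapped theirs, although LOC110262177 lies within the span of DKK2. SFRP1 lies at chr17:10436414-10489773 on the minus strand, SFRP2 at chr8:75337311-75345926 on the plus strand and SFRP4 at chr9:108404314-108414335 on the minus strand. FRZB lies at chr15:88332856-88377275 and SFRP5 at chr14:109120382-109125655, both on the minus strand. DKK2 lies at chr8:114862056-114974327 and DKK3 at chr2:47385244-47444664, both on the plus strand, and WIF1 lies at chr5:29450442-29543913 on the minus strand. No stretch of 31 bases was shared between the exons of any pair of the 8 genes.

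The 250 bases before the annotated RefSeq start are printed for SFRP1, SFRP2 and SFRP4, because their zones did not overlap in level. Letters are 5′ to 3′ on the strand of the gene, and capitals mark a match on either strand to 1 of 5 motifs. The motifs were TCF/LEF (CTTTGA or CTTTGT, 21.2% of 19529 annotated promoters of this length), AP-1 (TGANTCA, 5.25%), TEAD (GGAATG, 10.3%), the CCAAT box (CCAAT, 31.9%) and the TATA box (TATAAA, 9.76%). The windows are chr17:10489774-10490023 (minus strand), chr8:75337061-75337310 (plus strand) and chr9:108414336-108414585 (minus strand).
SFRP1: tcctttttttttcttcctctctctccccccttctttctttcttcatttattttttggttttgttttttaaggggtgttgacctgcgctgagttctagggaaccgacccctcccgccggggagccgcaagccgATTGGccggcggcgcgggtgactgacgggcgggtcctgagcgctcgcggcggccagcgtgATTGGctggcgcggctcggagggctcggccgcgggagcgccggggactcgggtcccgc
SFRP2: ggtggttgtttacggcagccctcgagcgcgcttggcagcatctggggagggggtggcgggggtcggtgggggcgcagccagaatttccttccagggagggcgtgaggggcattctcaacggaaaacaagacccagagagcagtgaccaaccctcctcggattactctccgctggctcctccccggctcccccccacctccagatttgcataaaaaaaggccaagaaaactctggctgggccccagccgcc
SFRP4: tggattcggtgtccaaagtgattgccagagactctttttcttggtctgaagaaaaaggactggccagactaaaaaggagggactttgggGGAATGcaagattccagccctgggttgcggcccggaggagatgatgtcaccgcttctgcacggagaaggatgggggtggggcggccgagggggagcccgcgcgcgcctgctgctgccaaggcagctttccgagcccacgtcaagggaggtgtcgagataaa
SFRP1 held 2 CCAAT matches, both on the opposite strand, SFRP4 held 1 TEAD match, and SFRP2 held no match to these letters. Of the 8 promoters only that of DKK2 held a TCF/LEF match. A match of letters is no measurement of binding.

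Total counts were 15130210 to 30526110 in border zone and 20091415 to 31618680 in remote zone libraries. The share of counts on mitochondrial protein genes was 5.69% to 17.3% in border zone and 13.6% to 33.5% in remote zone libraries. The border zone library of animal 3622 had a count in 28024 genes, against 17563 to 20148 in the other border zone libraries. The border zone library of animal 1022 was lowest on the cardiomyocyte marker list and highest on the fibroblast and matrix list. Levels are given as CPM, counts scaled to library size by TMM, and differences within an animal are of log2(CPM + 0.1), which understates the change of low genes.

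All 7 members that passed the filter had a higher fitted level in the border zone. Their log2 fold changes ran from 1.48 to 8.91 with a median of 2.37, beside a median of 0.04 over all 13844 genes tested. In edgeR's quasi-likelihood test, 3 of the 7 were past an adjusted p of 0.05 over all genes, all higher, where 2.06% of all genes tested were. With the animal as a block the number was 2 of 7, against 0.289% of all genes. Without animal 1323, 1623 or 3622 none of the members was past the threshold, where 0.0218%, 0% and 0% of all genes passed as higher. Without 1922 SFRP1 alone was, where 0.0999% of all genes passed as higher. The shares of members describe the choice of the family and no more.

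SFRP2, a frizzled-related protein made by activated fibroblasts, had the widest difference. Its border zone level was 375.6 CPM in animal 1022, 39.7 in animal 1623, 32.7 in animal 3622, 9.90 in animal 1922, 6.36 in animal 1323 and 2.68 in animal 1322. Its remote zone level was 0.396, 0.0382, 0, 0.156, 0.263 and 0 CPM in the same order of animals. The remote zone held 22 SFRP2 counts in all, of which 10 were in animal 1022, and the border zone held 13533. A count of 0 allows up to 0.145 CPM in animal 1322 and 0.201 CPM in animal 3622, for counting error only. The zones did not overlap, and the lowest border zone library was above the highest remote zone library. The median difference within animals was 6.73 log2 units, from 4.15 to 9.57, a fold of 106.2 on this scale. The size depends on the added constant, with a median of 5.02 at a constant of 0.5 and 8.88 at 0.01. The fitted log2 fold change was 8.91 ± 1.44 (SE), and 8.15 ± 0.79 with the animal as a block. It was 7.37 without animal 1022 and 6.81 without the border zone library of that animal alone.

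SFRP1, a frizzled-related protein that binds several Wnt ligands, was already well measured in the remote zone. Its levels there were 18.1 to 34.6 CPM with a median of 24.4. In the border zone it ranged from 74.1 CPM in animal 1322 to 613.5 CPM in animal 1022, with a median of 168.9. The zones did not overlap, and the remote zone libraries lay close together, within 1.91-fold of each other, where the border zone spanned 8.28-fold. Much of that span was animal 1022, as the next border zone level was 204.2 CPM in animal 1623. Leaving aside animals 1022 (4.80) and 1322 (1.68), the difference within an animal was 2.52 to 2.69 log2 units in the other 4 animals. The median was 2.60, a 6.07-fold difference, and the fitted log2 fold change was 3.15 ± 0.45 (SE). Without animal 1022 it was 2.48, and without its border zone library 2.51.

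SFRP4, a frizzled-related protein linked to fibrosis and phosphate handling, was low in the remote zone. It ranged from 0.676 to 1.70 CPM there, with a median of 1.11, from 13 to 35 counts a library. In the border zone it ranged from 2.29 CPM in animal 1322 to 25.5 CPM in animal 1022, with a median of 6.47. The zones did not overlap, although in animal 1322 they differed by only 0.41 log2 units. The median difference was 2.45 log2 units, and the fitted log2 fold change was 3.22 ± 0.56 (SE).

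FRZB, also called SFRP3 and first described in cartilage, had the highest level per length of the family in most libraries. The remote zone level was 53.8 to 483.1 CPM with a median of 125.2, and the border zone level was 115.5 to 1106 CPM with a median of 618.8. The zones overlapped, because the remote zone of animal 1323, at 483.1 CPM, was above the border zone of animals 1022, 1322 and 1922. Within each of the 6 animals the border zone was higher, by 0.71 log2 units in animal 1323 to 3.43 in animal 3622, with a median of 1.83. FRZB was lowest in animal 1922 in both zones.

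SFRP5, a frizzled-related protein known from adipose tissue, was a low gene with 8 to 219 counts a library. Its border zone level was 1.02 to 7.24 CPM with a median of 2.77, and its remote zone level was 0.263 to 1.64 CPM with a median of 1.13. The zones overlapped. The border zone was higher in 6 of 6 animals, but in animal 1322 both libraries held 21 counts and the difference was 0.007 log2 units. The median difference was 1.23 log2 units.

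**Figure D1:**
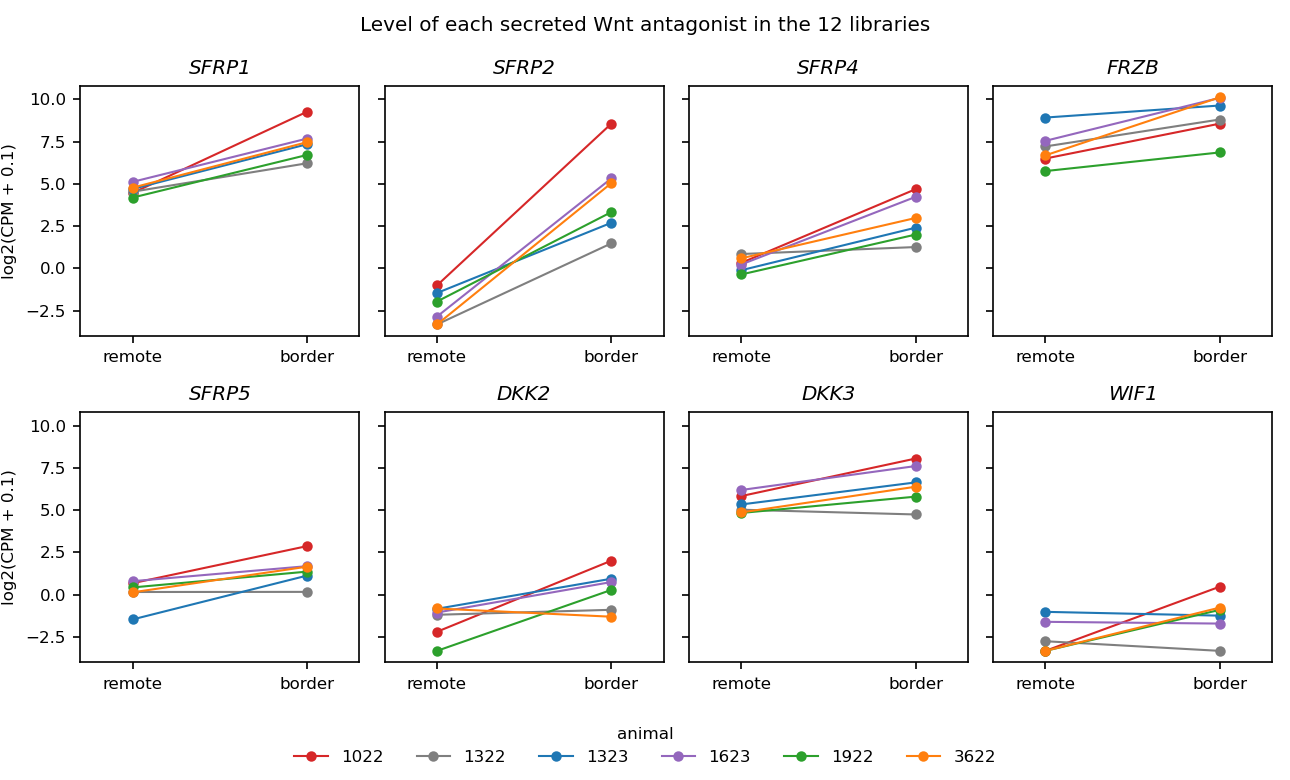
Level of each gene on a log2(CPM + 0.1) scale in the remote zone and the border zone, with 1 line per animal (6 animals, 12 libraries). SFRP1, SFRP2 and SFRP4 have no border zone point as low as any remote zone point, and animal 1022 (red) is the highest border zone point in every panel but FRZB.

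DKK3, a divergent Dickkopf protein whose action on LRP5 and LRP6 is disputed, was the next most abundant member of the remote zone per length. It ranged from 28.4 to 73.1 CPM there, with a median of 36.4, and from 26.7 to 265.4 CPM in the border zone, with a median of 91.6. The zones overlapped, and the border zone was higher in 5 of 6 animals. In animal 1322 it was lower, at 26.7 against 32.5 CPM. The median difference was 1.36 log2 units.

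DKK2, which binds LRP6, was near the limit of detection. It ranged from 0 to 0.468 CPM (median 0.360) in the remote zone, and from 0.306 to 3.93 CPM in the border zone, with a median of 1.35. The border zone was higher in 5 of 6 animals and lower in animal 3622, at 0.306 against 0.468 CPM. WIF1 had 0 to 39 counts a library, 73 in the border zone and 19 in the remote zone, and was higher in the border zone in 3 of 6 animals. It was at 0 in 3 remote zone libraries and 1 border zone library, so its level cannot be ordered between the zones at this depth.

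In all, 3 of the 8 genes had no overlap between the zones, where 1.99% of the 13844 genes tested had their lowest border zone level above the highest remote zone level. 5 of the 8, namely SFRP1, SFRP2, SFRP4, FRZB and SFRP5, had the higher level on the border zone side in all 6 animals, where 11.7% of the genes tested were. Because the family was chosen for this difference, nothing is read from these shares.

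The fitted differences of the remaining tested members were smaller than those of SFRP1, SFRP2 and SFRP4. The log2 fold change was 1.88 ± 0.58 (SE) for FRZB, 1.51 ± 0.48 for SFRP5, 2.37 ± 0.69 for DKK2 and 1.48 ± 0.47 for DKK3. With the animal as a block these were 1.90 ± 0.37, 1.45 ± 0.39, 2.16 ± 0.78 and 1.21 ± 0.29. With 1 animal left out, FRZB ranged from 1.53 to 2.37, SFRP5 from 1.18 to 1.68, DKK2 from 1.67, without animal 1022, to 2.71, and DKK3 from 1.17 to 1.61. SFRP4 ranged from 2.73 to 3.55.

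The family was compared between its members after division by exon length, as CPM per kb. In the border zone the median level was 241.2 for FRZB, 39.7 for SFRP1, 33.5 for DKK3, 10.7 for SFRP2, 3.77 for SFRP4, 2.36 for SFRP5, 0.368 for DKK2 and 0.164 for WIF1. In the remote zone it was 48.8 for FRZB, 13.3 for DKK3, 5.74 for SFRP1, 0.968 for SFRP5, 0.645 for SFRP4, 0.0983 for DKK2, 0.0485 for SFRP2 and 0.0104 for WIF1. SFRP2 thus came after FRZB, SFRP1 and DKK3 in the border zone, and in the remote zone SFRP2, DKK2 and WIF1 were the lowest of the 8 by median, with ranges that overlapped and some libraries at 0, so their order there is not resolved. SFRP1 and DKK3 are neighbours in the border zone order whose ranges overlapped, as did those of SFRP2 with both of them.

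FRZB made up a median of 76.1% of the summed level of the family per kb in the border zone, from 24.5% to 84.9%, and 67.1% in the remote zone, from 55.5% to 89.6%. It was the highest member in 6 of 6 remote zone libraries and 5 of 6 border zone libraries. The exception was the border zone of animal 1022, where SFRP2 made up 31.4%, FRZB 24.5% and SFRP1 24.1%. The second member was DKK3 in all 6 remote zone libraries and SFRP1 in 4 of the 6 border zone libraries. The share of SFRP2 was 3.28% in the median border zone library and 0.0400% in the median remote zone library, and that of DKK3 was 10.9% and 21.2%.

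**Figure D2:**
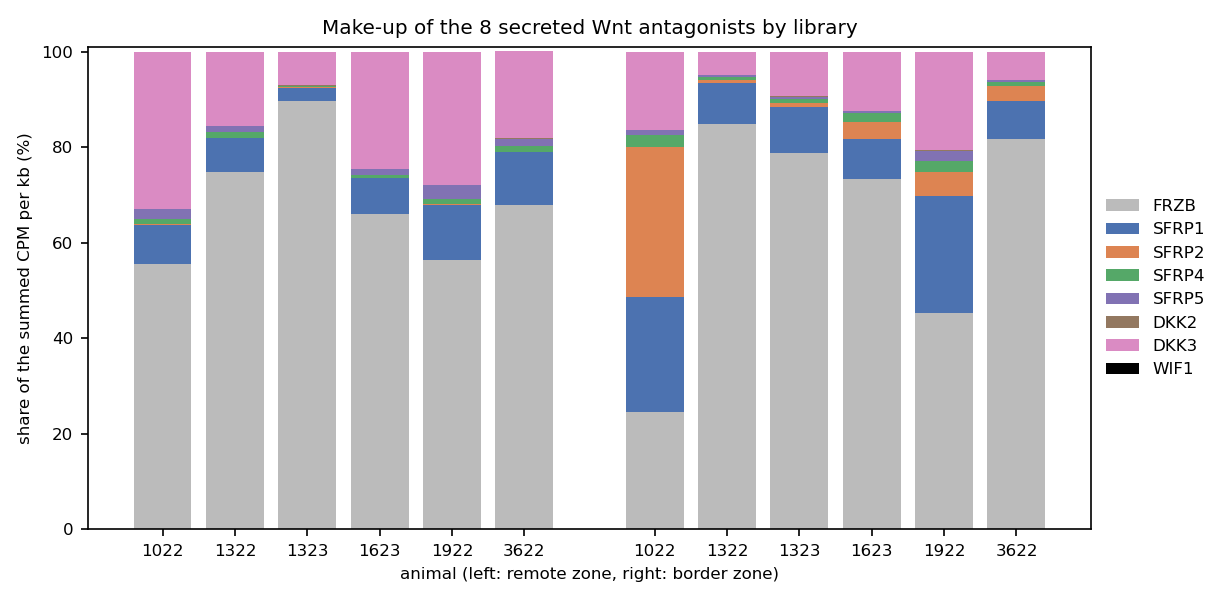
Share of each gene in the summed level of the 8 genes (CPM per kb, in percent) in each of the 12 libraries, remote zone on the left and border zone on the right. FRZB (grey) takes the most in every library except the border zone of animal 1022, where SFRP2 (orange) takes 31.4%.

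The summed level of the 8 genes was 99.7 to 598.4 CPM per kb in the border zone, with a median of 459.4, and 37.2 to 210.3 in the remote zone, with a median of 70.1. Within animals the border zone was 1.86 to 9.46 times the remote zone, with a median ratio of 3.97. Without FRZB the median ratio was 3.96, from 1.60 to 16.0, so the ratio did not rest on FRZB alone.

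The members were uneven between animals. The border zone of animal 1022 held the highest level of 7 of the 8 genes, all but FRZB, and that library was the highest border zone library for 32.6% of all genes tested. The border zone of animal 1322 held the lowest level of 6 of the 8, and it was the lowest border zone library for 21.1% of all genes tested. SFRP2 spanned 140.2-fold between the highest and lowest border zone library, from 375.6 CPM in animal 1022 to 2.68 CPM in animal 1322. The next highest was 39.7 CPM, in animal 1623. FRZB followed another order, with its highest border zone levels in animals 3622 and 1623, at 1106 and 1083 CPM.

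Marker lists of the cell types a block of myocardium can hold were measured in the same libraries. The fibroblast and matrix list had a mean log2(CPM + 0.1) of 6.72 to 9.81 in border zone and 5.70 to 6.58 in remote zone libraries, and the 6 animals all had the higher mean in their border zone library, by a median of 1.80. Of its 15 genes, 11 were past the threshold and higher, where 2.06% of all genes tested were. With the animal as a block 1 was, where 0.289% of all genes were. The summed level of the 15 genes was 3747 to 73310 CPM against 1352 to 3260 CPM. The highest sum was that of animal 1022, and the other border zone libraries reached 12846 CPM. The cardiomyocyte list had its lower mean on the border zone side in 6 of 6 animals, by a median of 0.13 log2 units, and by 1.77 in animal 1022. In the fit, 10 of its 11 genes had a log2 fold change below 0 and the median was -0.51. The exception was NPPA, a natriuretic peptide gene that stressed cardiomyocytes express, at 2.09. Its 11 genes had a summed level of 11590 to 70790 CPM against 58880 to 98200 CPM. The lowest sum was again that of animal 1022, with the other border zone libraries at 40534 CPM or more, so both zones held abundant cardiomyocyte RNA. In bulk samples fewer cells of a type and less RNA per cell cannot be told apart.

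The chondrocyte and tendon list also had the higher mean on the border zone side in 6 of 6 animals, by a median of 2.36 log2 units, with a summed level of 12.9 to 1233 CPM against 3.54 to 13.2 CPM. The 1233 CPM were those of animal 1022 alone, and the other border zone libraries held 12.9 to 103.4 CPM. The median difference was 0.84 for the epicardial and mesothelial list, 0.70 for macrophages, 0.53 for smooth muscle cells and pericytes and 0.31 for Schwann cells, each higher in 5 of 6 animals. The adipocyte list had no single direction. Its mean log2 level was higher in 5 of 6 animals, by a median of 0.30, while its summed level was lower in 5 of 6, at 261.7 to 1471 CPM against 975.6 to 1459 CPM, and 3 of its 7 tested genes had a log2 fold change above 0. It was 0.02 for endothelial cells, higher in 3 of 6 animals. The chondrocyte and tendon list and the epicardial and mesothelial list each had 1 of 4 tested genes past the threshold, higher. With the animal as a block neither had any, and the adipocyte list had 1 of 7. The shares of all genes were 2.06% and 0.289%. The cardiomyocyte, endothelial, smooth muscle, macrophage and Schwann cell lists had 0 in both fits. An identifier was found for 11 of 14 cardiomyocyte and 7 of 11 epicardial and mesothelial markers. No marker with an identifier was at 0 in every library. The part of these cell types in the difference of the Wnt antagonists was not tested.

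The genes of the fibroblast and matrix list varied widely among themselves, with fitted log2 fold changes from 0.74 to 5.09 and a median of 2.36 over its 15 genes. Of these 15, 4 had a larger log2 fold change than SFRP1 and SFRP4, namely FN1 (5.09), COL1A1 (4.05), POSTN (3.44) and COL1A2 (3.27), which encode fibronectin, both chains of type I collagen and periostin. The values of FRZB, SFRP5 and DKK3 were below those of 10 of the 15 and that of DKK2 was below 7, so these 6 members lay within the range of the matrix genes. SFRP2, at 8.91, lay above the 15. With the animal as a block the 15 genes ran from 0.76 to 3.20, and the number above SFRP1 was 2 (FN1 at 3.20 and COL1A1 at 2.82, against 2.79 for SFRP1), while FN1 alone was above SFRP4 at 2.83. How SFRP1 and SFRP4 rank among these genes thus depends on the fit. These values are set side by side without a test, because the members were chosen for this difference.

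**Figure D3:**
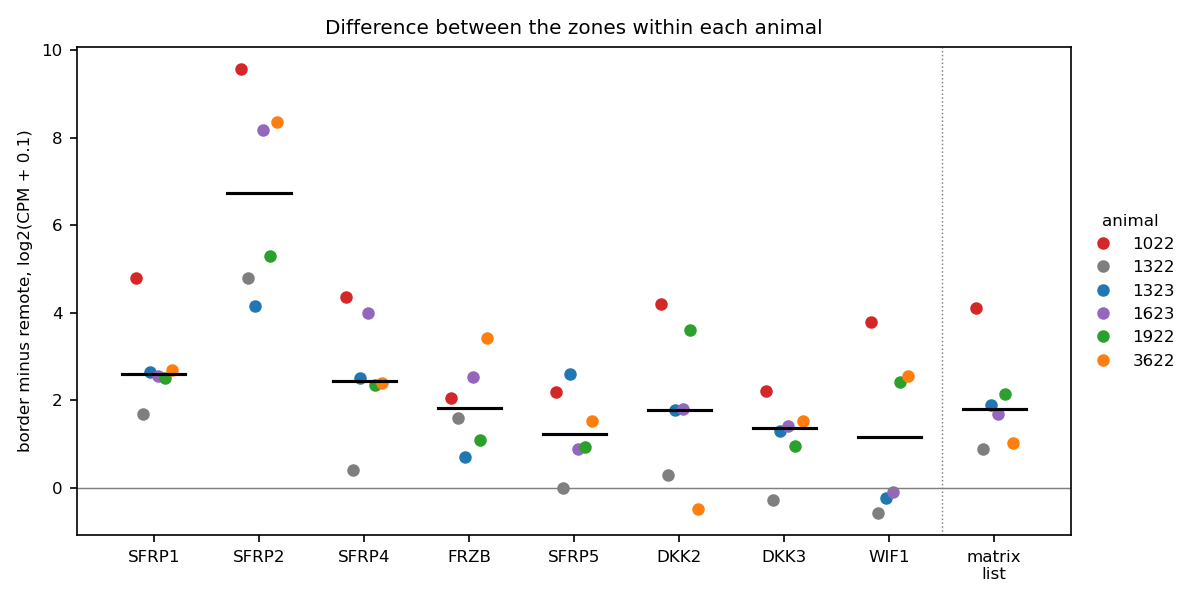
Border zone minus remote zone in log2(CPM + 0.1) for each gene and, on the right, for the mean of the fibroblast and matrix list, with 1 point per animal and a bar at the median. The 6 points of SFRP2 lie between 4.15 and 9.57, and the matrix points are means over 15 genes and so hide the spread among those genes.

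The rest of the Wnt pathway was read from 6 lists of 81 genes that hold none of the 8. Of these, 78 had an identifier and 50 passed the filter. Of the 50, 3 were past the threshold and higher (APCDD1, ROR2 and PTK7), against 2.06% of all genes tested, 0 were lower, and with the animal as a block 0 passed. At an unadjusted p under 0.05 in edgeR, 11 were higher and 1 lower, where 24.7% of all genes tested were under it in either direction. With the animal as a block they were 12 and 2, where 29.4% of all genes were. DESeq2's Wald test passed 9 as higher, where it passed 8.57% of all genes. The median log2 fold change of the 50 genes was 0.14, and 32 were above 0.

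Among 6 other antagonists tested, APCDD1 passed. It encodes a membrane protein that binds Wnt ligands and LRP5. Its border zone level was 5.29 to 33.6 CPM with a median of 10.4, and its remote zone level was 2.30 to 5.63 CPM with a median of 2.51. It was higher in 6 of 6 animals, although the zones overlapped between animals, with a log2 fold change of 2.16 ± 0.41 (SE) and an adjusted p of 0.0276 (edgeR). With the animal as a block the log2 fold change was 1.97 with an adjusted p of 0.0709. The call held without animal 1022 or 1322, and without 1323, 1623, 1922 or 3622 the adjusted p was 0.0702, 0.108, 0.0631 and 0.0909. DKK1, the best known Dickkopf protein, was at 0.264 to 2.91 CPM in border zone libraries, with a median of 0.775, and at 1.04 to 1.87 CPM in remote zone libraries, with a median of 1.11. It was higher on the border zone side in 1 of 6 animals, with a log2 fold change of -0.40 and an adjusted p of 0.650 (edgeR), and of -0.74 with the animal as a block.

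Among 14 receptors tested, ROR2 and PTK7 passed, both coreceptors of signalling without β-catenin. ROR2 was at 0.292 to 37.7 CPM in border zone and 0.0520 to 0.533 CPM in remote zone libraries, higher in 5 of 6 animals. Its log2 fold change was 4.72 ± 1.04 (SE) with an adjusted p of 0.0353 (edgeR), and with the animal as a block 3.62 with an adjusted p of 0.0798. PTK7 was at 4.68 to 69.4 CPM against 2.34 to 6.15 CPM, higher in 5 of 6 animals. Its log2 fold change was 2.35 ± 0.57 (SE) with an adjusted p of 0.0495 (edgeR), and with the animal as a block 1.80 with an adjusted p of 0.108. Without animal 1022 the log2 fold change was 3.04 for ROR2, with an adjusted p of 0.0766, and 1.31 for PTK7, with an adjusted p of 0.0884. Without the border zone library of animal 1022 alone both calls held, at 3.003 with an adjusted p of 0.0346 for ROR2 and 1.43 with 0.0398 for PTK7. Both also held without animal 1322. Without 1323, 1922 or 3622 the adjusted p was 0.131, 0.0825 and 0.110 for ROR2 and 0.169, 0.104 and 0.105 for PTK7. Without 1623 ROR2 was under the filter and PTK7 was at 0.135. Of all genes tested, 3 passed without 1323, 15 without 1922 and 0 without 3622 or 1623. PTK7 was also lost with DESeq2 size factors, at 0.0589, and without mitochondrial protein genes, at 0.0516. Of the coreceptors that Dickkopf proteins bind, LRP5 was at 118.0 to 197.1 CPM in border zone and 116.5 to 197.5 CPM in remote zone libraries. LRP6 was at 12.3 to 29.7 CPM and 5.68 to 17.0 CPM.

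None of the 6 ligands tested passed, and 12 ligand genes were under the filter. WNT5A, a ligand that acts mainly without β-catenin, was at 0.877 to 4.66 CPM in border zone and 0.872 to 2.94 CPM in remote zone libraries, with a log2 fold change of 0.37 and an adjusted p of 0.615 (edgeR), higher in 5 of 6 animals. WNT9A had a log2 fold change of 0.20 and an adjusted p of 0.776, higher in 4 of 6. The median over the 6 ligands was 0.14. Of the 12 ligand genes under the filter, which were not tested, WNT10B and WNT2B were higher on the border zone side in 6 of 6 animals at low levels. Of all genes tested 11.7% were. WNT8B was higher in 1 of 6 animals and WNT6 in 2 of 6. WNT10B was at 0.146 to 1.47 CPM against 0.0382 to 0.134 CPM, and WNT2B at 0.292 to 1.62 CPM against 0.145 to 0.602 CPM. The WNT10B ranges did not overlap, as for 1.99% of all genes tested. A count of 0 allows up to 0.201 CPM in the remote zone of animal 3622, so that separation is not resolved.

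None of the 4 genes for ligand release and agonists passed. WLS, which carries Wnt ligands to the cell surface, had a log2 fold change of 1.23 with an adjusted p of 0.109 (edgeR), higher in 5 of 6 animals. Without animal 1022 its log2 fold change was 0.52, and without the border zone library of that animal 0.55. PORCN, which acylates the ligands, was at 0.74 with an adjusted p of 0.254 (edgeR), higher in 4 of 6. Its log2 fold change was 0.27 without animal 1022 and 0.34 without the border zone library of that animal. The 4 R-spondin genes, agonists that raise receptor levels, were under the filter.

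None of the 12 transducers passed, with a median log2 fold change of 0.04. The 2 with the smallest p were TCF7L2, a transcription factor that binds β-catenin, at 0.63 with an adjusted p of 0.156 (edgeR), higher in 5 of 6 animals, and DVL1, which links Frizzled to the inside of the cell, at -0.28 with an adjusted p of 0.270. All 6 animals had the lower DVL1 level in their border zone library. Of 8 feedback targets tested none passed, with a median of 0.19. NKD1, an intracellular antagonist induced by the pathway, was at 0.779 to 23.2 CPM against 0.436 to 1.60 CPM, with a log2 fold change of 2.73 ± 0.73 (SE) and an adjusted p of 0.0599 (edgeR), higher in 5 of 6 animals. The log2 fold change of NKD1 was 1.85 with the animal as a block, 1.36 without animal 1022 and 1.51 without its border zone library. NKD2 was at -0.44 with an adjusted p of 0.192, higher in 1 of 6.

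**Figure D4:**
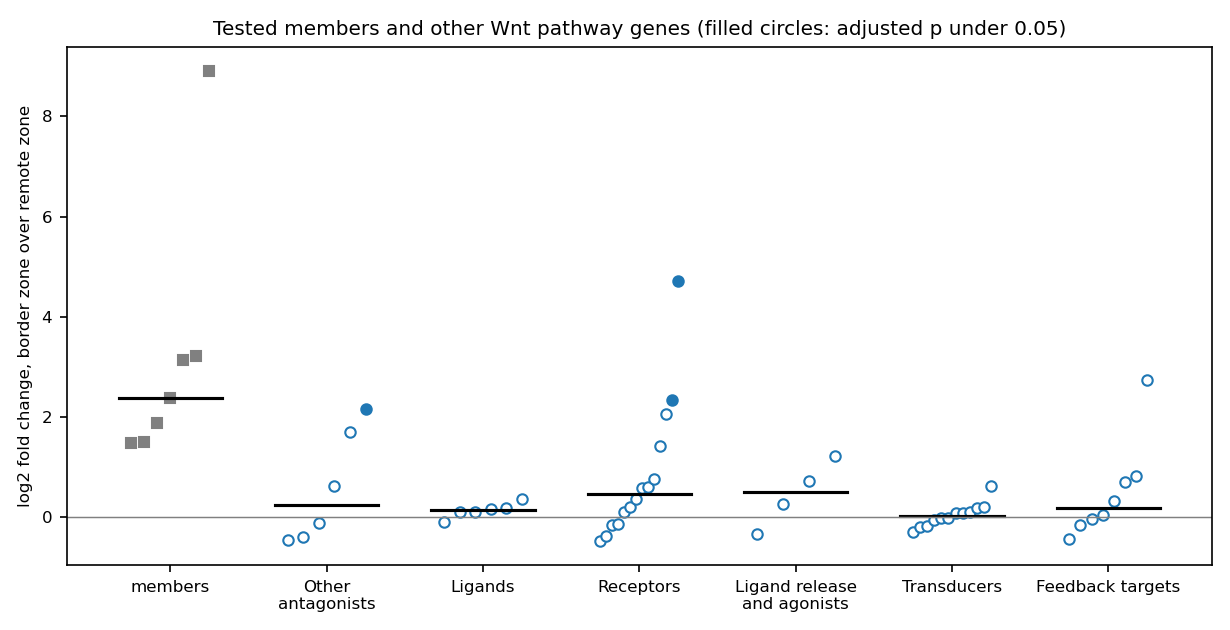
Log2 fold change of border zone over remote zone for the 7 tested Wnt antagonists (grey squares, no test shown) and for the 50 tested genes of the other pathway lists (circles, filled where the adjusted p was under 0.05), with a bar at the median of each. The filled circles are APCDD1, ROR2 and PTK7, and the medians of the 6 lists lie between 0.04 and 0.50.

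Genes whose level followed each member were ranked by Pearson r over the 12 libraries among 11726 tested genes with a symbol. These libraries come from 6 animals, and the difference between the zones and the depth of each library enter every r, so they are given as descriptions. The 5 genes most like SFRP2 were PI16 (r = 0.985), a marker of adventitial fibroblasts, LTBP2 (0.976) and TNC (0.966), both of the extracellular matrix, THBS3 (0.969), and KCNMA1 (0.962), a potassium channel. PI16 was at 125.5 to 752.4 CPM in border zone and 22.1 to 34.6 CPM in remote zone libraries. The 2 most like SFRP1 were CCDC80 (0.990) and TGFB3 (0.985), the latter a growth factor of matrix formation. CCDC80 was at 127.2 to 784.4 CPM against 28.0 to 49.9 CPM.

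For SFRP4 the most like genes were GLIPR1 (0.966) and APOE (0.963), a lipid carrier abundant in macrophages. For FRZB they were SCN3B (0.929), a sodium channel subunit, and GNPDA2 (0.920), and SCN3B was at 36.2 to 531.1 CPM against 11.7 to 141.0 CPM. For SFRP5 they were KCTD17 (0.954) and SHAS2 (0.935), for DKK2 ARSJ (0.955) and TNFAIP6 (0.946), and for DKK3 SNPH (0.969) and CASP1 (0.950). The named genes differed for each member, and by Spearman correlation 1 of the 5 for SFRP2 and 0 of the 2 for each other member were named again.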

How the data were processed

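RNA was measured by poly(A)-selected RNA sequencing in 12 libraries, 6 border zone and 6 remote zone. The authors deposited raw counts per gene, made per the methods with STAR and featureCounts on Sscrofa11.1 with Ensembl release 113. The counting options for reads that match several places are not given in the sources used here. PCR duplicates remain, so intervals cover counting error only. The labels give the zone and the animal but not its treatment, which was not analysed here.

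Symbols were matched for 15623 of 35682 identifiers. Exon lengths, positions and promoters came from RefSeq models of the same assembly, which can differ from the counted Ensembl models. Counts were analysed with edgeR 4.0.16 and limma 3.58.1 in R 4.3.3 (filterByExpr, TMM, robust quasi-likelihood test, zone as the only term), with Benjamini-Hochberg adjustment over all 13844 genes tested and a threshold of 0.05. SEs were taken as the log2 fold change over the root of the F statistic. The prior count was 2 and the constant for single levels 0.1. Tables were made with Python 3.11.15, pandas 2.3.3 and NumPy 2.4.6. The edgeR fit with zone as the only term was run on simulated counts, which held no effect of the animal. Alternatives were the animal as a block, DESeq2 1.42.0, other scalings and filters, and each animal left out.

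Libraries with the same number are from 1 animal and are paired by it. Across genes, the deviations of a pair from its zone means correlated at r = -0.03 in animal 1022 and 0.072 in animal 1322. In animals 1323, 1623, 1922 and 3622 they correlated at 0.572, 0.427, 0.507 and 0.524. Animals are the replicates, but the main fit treats the border and remote zone library of an animal as independent. Only the fit with the animal as a block uses the pairing.

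The members and all lists were chosen with earlier results of these data known. Named genes were all members, up to 4 genes per pathway list and direction past the threshold or else the 2 with the smallest p, and the 5 genes most like SFRP2 and 2 most like each other tested member. DKK1, LRP5, LRP6, FN1, COL1A1, POSTN, COL1A2, NPPA, WNT10B and WNT2B were named outside this rule, after their values were seen, and so were WNT8B, WNT6, TRABD2B, FZD1, FZD2 and ROR1.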

Additional observations from a re-analysis of the deposited data

Results flagged for a closer look

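Of 38 groups of 6 libraries checked, 4 held a library that stood far from the others, and chance gives about 1 in 20. SFRP5 in the remote zone of animal 1323 was at -1.46 on the log2(CPM + 0.1) scale, from 8 counts, with the next library at 0.14. The border zone of animal 1022 had a mean log2 level of 9.54 on the cardiomyocyte list, with the next library at 11.12. The remote zone of animal 1322 had a mean log2 level of 0.84 on the epicardial and mesothelial list, with the next at 0.49. The border zone of animal 3622 had a count in 28024 genes, with the next at 20148.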

How the results depend on the processing

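All 99 fitted log2 fold changes of the tested Wnt antagonists under the alternatives were above 0, as were the 24 medians within animals at other constants or with library totals. These genes were chosen for their zone difference in the same libraries, so this is a description only. The 24 medians include WIF1, whose level cannot be ordered between the zones. The calls moved more. In all, 287 genes passed (285 higher, 2 lower). The number was 41 with the animal as a block (40 higher, 1 lower), 1476 by DESeq2's Wald test (1186 higher, 290 lower), 1551 with library totals in place of TMM, which moved the median of all genes from 0.04 to 0.32 (1545 higher, 6 lower), 139 with no filter, 149 with at least 10 counts in every library and 156 without the border zone library of animal 3622. With 1 animal left out it ranged from 0 to 519. It was 163 without animal 1022, 519 without 1322, 3 without 1323, 15 without 1922 and 0 without 1623 or 3622, where edgeR had 2662 and 2448 genes at an unadjusted p under 0.05.

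Of the Wnt antagonists, 7 passed by DESeq2's Wald test and with library totals, where 8.57% and 11.2% of all genes passed as higher. With the animal as a block 2 passed (SFRP1 and SFRP2, 0.289% of all genes), and 2 (SFRP1 and SFRP4) with no filter (0.459%) and with at least 10 counts (1.23%). With 1 animal left out it was 0 to 3, with 0 without 1323, 1623 or 3622 and SFRP1 alone without 1922, beside 0% to 3.64% of all genes. Of the other pathway genes, 9 passed by the Wald test and with library totals (TRABD2B, FZD1, FZD2, ROR1, WLS and NKD1 beside the 3), 0 with the animal as a block, 1 (APCDD1) with no filter, with at least 10 counts and without the border zone library of animal 3622, and 0 to 5 with 1 animal left out. The log2 fold change of WNT5A was -0.065 to 0.67 with 1 animal left out, -0.065 without animal 1022 and -0.052 without its border zone library, and that of WNT9A was -0.014 to 0.35, the lowest without animal 1022. The cause was not tested. Of 162 fold changes of named pathway genes under the alternatives, 159 kept their direction.

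In checks added after the values were seen, leaving out any animal left 3 or 4 Wnt antagonists with no overlap between the zones (2.41% to 6.33% of all genes tested) and 5 or 6 higher in the border zone of every animal (12.7% to 20.7%). DKK2 was under the filter with at least 10 counts, without mitochondrial protein genes and without animals 1323 or 1623, and SFRP2 and SFRP5 with at least 10 counts. By within-animal differences, 0 of the genes most like each member were named again. Depth limits WIF1, DKK2 and the remote zone level of SFRP2.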
